A study of Mus musculus with 24 samples.

Results

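The 8 genes described here encode dual-specificity phosphatases that act on MAP kinases: Dusp1, Dusp2, Dusp4, Dusp5, Dusp6, Dusp7, Dusp9 and Dusp14. They were chosen by name, but with earlier results of these data known, and all 8 were found among the 21671 genes of the RPKM table. Other MAP kinase phosphatases in that table, Dusp10 among them, are outside this list. RPKM is the number of reads scaled by the length of the gene and by the total of the library. All 8 passed the filter for testing, as did 12268 genes in all. Dusp9 passed it through the WT libraries, where it was high, so its WT calls are not separate from the filter. The cells were 3T9 mouse fibroblasts, an immortalized line, infected with empty vector (EV) or with BP-MycER-WT, BP-MycER-HEA or BP-MycER-RA. Every group, EV included, was in OHT (4-hydroxytamoxifen), for either 4 h or 8 h, which makes 8 groups of 3 libraries (24 in all). Each MycER group thus has an EV control with the same drug and time, and no group was without OHT. MycER is the transcription factor Myc fused to the hormone-binding domain of the estrogen receptor, which holds the protein inactive until OHT is added. The series compares the unmutated form (WT) with 2 Myc mutants, and it is background knowledge that HEA changes residues contacting the bases of the E-box and RA residues contacting the DNA backbone.

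MAP kinases (ERK, p38 and JNK) are switched on by phosphorylation of a threonine and a tyrosine, and these phosphatases remove both phosphates. Dusp1, Dusp2, Dusp4 and Dusp5 are nuclear, Dusp6, Dusp7 and Dusp9 are mainly cytoplasmic and prefer ERK, and Dusp14 is a small atypical member without the kinase-binding domain of the others. Several of them are induced by the kinases they turn off and so close a negative feedback loop, and in fibroblasts growth factors raise Dusp1 and Dusp6 in this way.

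The libraries held 9.82 to 12.8 M reads (median 11.0 M). Esr1, which marks the fused receptor domain, read 0.0990 to 0.385 RPKM in the 6 EV libraries and 9.04 to 13.7 RPKM in the 18 MycER libraries, so each library matched its label for the presence of a construct. Esr1 does not tell the 3 forms apart. Myc transcripts read 58.2 ± 1.9 RPKM in EV at 8 h, 38.8 ± 9.0 in WT, 49.5 ± 5.4 in HEA and 63.1 ± 4.4 in RA (SD, n = 3), and these reads do not separate the construct from the gene of the cells. The promoter that drives MycER, the number of integrations, the changed residues and whether the cells were a pool or a clone are details not given in the sources used here, and the cells kept their own Myc gene. Of 10 fibroblast markers 9 averaged at least 1 RPKM, and their summed level was 708 to 908 RPKM. The sum over 8 epithelial markers was 0.0178 to 0.634 RPKM (Epcam at 0 in all libraries) and that over 7 macrophage markers 16.4 to 26.5 RPKM (Emr1 at 0). Over 6 muscle markers it was 1.60 to 9.13 RPKM (Myod1 and Myh1 at 0), with group means from 1.84 in HEA at 8 h to 7.48 in RA at 4 h. The part of the muscle genes in the results below was not tested. The labels do not say that replicates came from separate cultures, so the p-values measure the spread between these libraries, which may be technical. In bulk RNA, fewer cells of a type and less RNA per cell cannot be told apart.

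Promoter sequences of 6 members (Dusp1, Dusp2, Dusp5, Dusp6, Dusp7 and Dusp14) were taken from RefSeq, build GRCm38.p6, as the 250 bases before the annotated start. They are shown for the 5 of these that passed against EV in WT (below), since Myc with its partner Max binds the E-box CACGTG and, as a weaker variant, CACGCG. Capitals mark these letters. They also mark the cyclic AMP response element TGACGTCA, which binds CREB and ATF factors, and CArG boxes, which bind the serum response factor. Both strands were searched, and the response element and the CArG box were added after the values of the members had been seen. Dusp2 lies at chr2:127335909-127336158 on the plus strand, Dusp7 at chr9:106368382-106368631 on the plus strand, Dusp1 at chr17:26508473-26508722 on the minus strand, Dusp5 at chr19:53528895-53529144 on the plus strand and Dusp6 at chr10:99262981-99263230 on the plus strand.
Dusp2: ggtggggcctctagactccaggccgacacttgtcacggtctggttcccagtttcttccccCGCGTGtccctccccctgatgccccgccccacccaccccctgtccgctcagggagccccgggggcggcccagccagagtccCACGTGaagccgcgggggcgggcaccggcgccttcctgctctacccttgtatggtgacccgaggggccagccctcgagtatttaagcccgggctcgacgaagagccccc
Dusp7: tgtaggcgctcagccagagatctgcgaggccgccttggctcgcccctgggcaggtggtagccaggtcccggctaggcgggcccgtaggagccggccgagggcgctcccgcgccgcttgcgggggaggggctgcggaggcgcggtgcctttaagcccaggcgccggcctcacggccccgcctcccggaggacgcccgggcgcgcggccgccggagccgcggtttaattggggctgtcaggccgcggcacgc
Dusp1: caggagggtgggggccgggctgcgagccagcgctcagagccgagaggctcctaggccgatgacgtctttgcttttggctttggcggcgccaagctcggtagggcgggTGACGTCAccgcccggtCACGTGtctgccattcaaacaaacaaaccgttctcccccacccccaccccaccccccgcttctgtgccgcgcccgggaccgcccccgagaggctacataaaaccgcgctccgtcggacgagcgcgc
Dusp5: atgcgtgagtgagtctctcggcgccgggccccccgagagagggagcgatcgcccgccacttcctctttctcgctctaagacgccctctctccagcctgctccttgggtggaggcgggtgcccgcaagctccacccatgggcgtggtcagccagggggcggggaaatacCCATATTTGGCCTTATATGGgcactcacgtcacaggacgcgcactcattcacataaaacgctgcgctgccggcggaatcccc
Dusp6: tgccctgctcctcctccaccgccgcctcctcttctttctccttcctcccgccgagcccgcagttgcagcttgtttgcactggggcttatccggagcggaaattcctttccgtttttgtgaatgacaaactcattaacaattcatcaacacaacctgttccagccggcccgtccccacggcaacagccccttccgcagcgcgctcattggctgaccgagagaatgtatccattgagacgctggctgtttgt
Dusp2 held CACGTG 109 bases before the start and CGCGTG, which is CACGCG on the other strand, 190 bases before it. Dusp1 also held CACGTG, 126 bases before the start, and TGACGTCA 143 bases before it. Dusp5 held neither E-box form but 2 adjacent CArG boxes, 82 and 72 bases before the start, and Dusp7 and Dusp6 held none of these 4 motifs. Dusp14, not printed, held CACGCG 77 bases before its start. Among all 32851 promoters of the table, 6.02% held CACGTG, 7.62% CACGCG, 1.55% TGACGTCA and 1.47% a CArG box. The looser E-box pattern CANNTG, which includes CACGTG, was found in 66.2% of promoters and in every one of the 6 except Dusp5. The pair with CACGTG, Dusp2 and Dusp1, moved in opposite directions in WT (below), and letters in a window are not evidence that a factor was bound there.

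The members spanned a wide range of levels. The mean over all 24 libraries was 55.8 RPKM for Dusp1, 49.3 for Dusp14, 36.3 for Dusp5, 35.2 for Dusp7 and 27.5 for Dusp6. Dusp2 averaged 8.24, Dusp4 3.49 and Dusp9 1.31 RPKM. Dusp1 thus stood at percentile 90.8 of the tested genes and Dusp9 at percentile 6.66. In reads, a library held 498 to 1688 for Dusp1 but 2 to 160 for Dusp9, so the counting error is largest for Dusp9. All members except Dusp4 differed among the 8 groups by limma's F-test (adjusted p = 0.000112 or lower). Dusp4 did not pass (adjusted p = 0.108). By that test Dusp2 ranked 61, Dusp9 556 and Dusp6 979 of 12268 genes. Dusp5, with adjusted p = 0.000112, ranked 4309 and Dusp4 ranked 10312. A pass by this F-test was thus common among all genes and does not set the members apart.

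**Figure D1:**
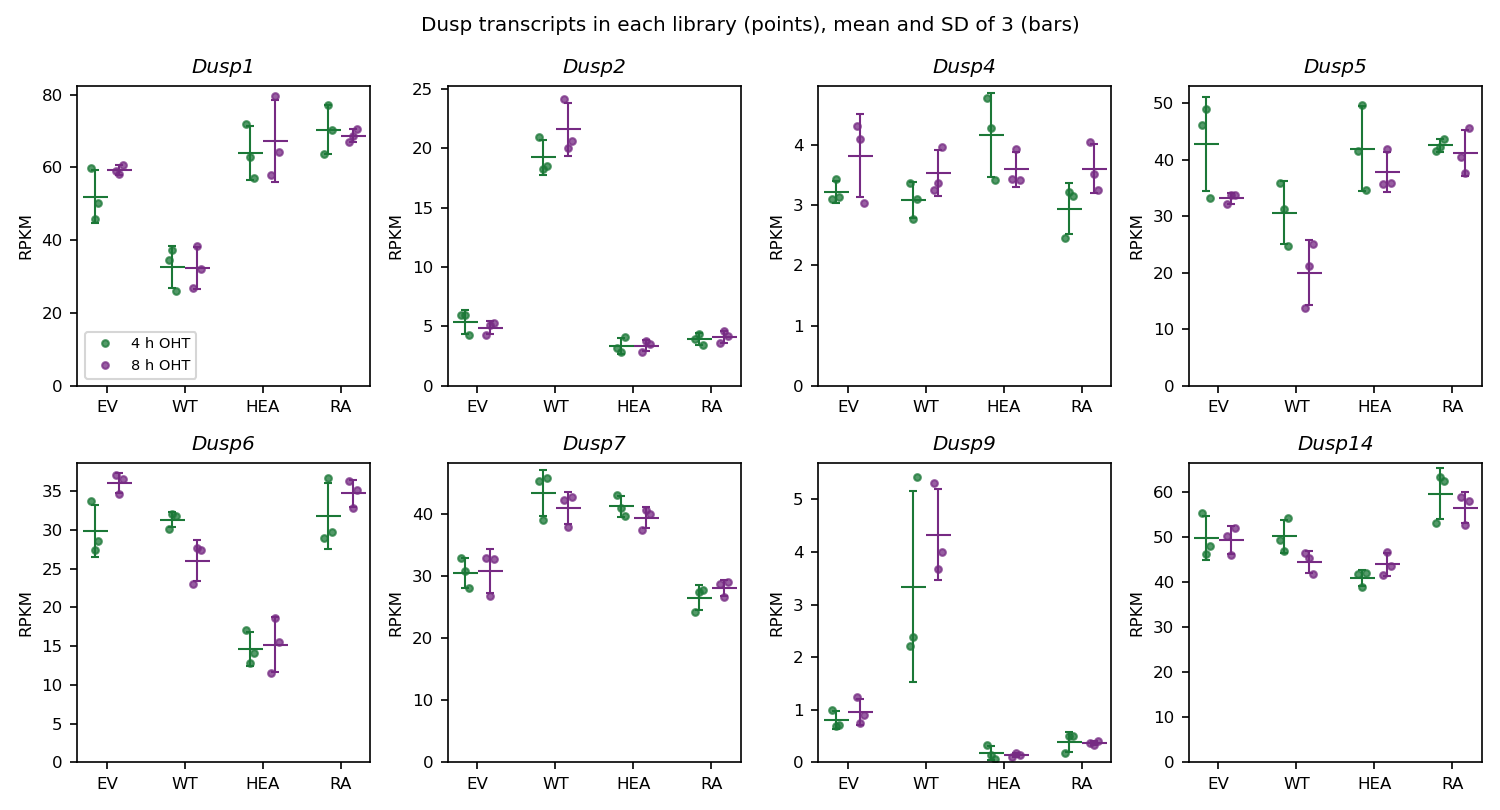
RPKM (vertical axis, linear, from 0) of each of the 8 Dusp genes in every library, by vector (horizontal axis) and time in OHT (colour); points are libraries and bars the mean and SD of 3. Dusp2 and Dusp9 are highest in WT, Dusp6 lowest in HEA, Dusp1 lowest in WT, and the group means of Dusp4 stay between 2.93 and 4.16 RPKM.

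Differences from EV at the same time were tested with limma on log2(RPKM + 0.5), with p-values adjusted over all 12268 genes. In WT at 4 h, 3 of the 8 members were higher (Dusp2, Dusp7 and Dusp9) and 1 was lower (Dusp1), where 11.6% of all tested genes passed as higher and 14.4% as lower. At 8 h the same 3 were higher and Dusp1, Dusp5 and Dusp6 were lower, against 15.2% of all genes higher and 20.1% lower. In HEA at 4 h only Dusp7 was higher and 4 members were lower (Dusp2, Dusp6, Dusp9 and Dusp14), against 17.7% of all genes higher and 25.5% lower. At 8 h Dusp7 was again higher and Dusp2, Dusp6 and Dusp9 were lower, against 20.2% and 27.5%. In RA no member passed at either time, where 5.31% of all genes passed at 4 h and 2.78% at 8 h. By limma without adjustment, 5 members had p under 0.05 in RA at 4 h and 2 at 8 h. Of all 12268 genes, 2505 and 2155 did. With limma-voom on recovered reads, 0 members were called at both times. The members' median log2 fold change in WT was 0.04 at 4 h and -0.12 at 8 h, beside -0.01 and -0.02 over all tested genes. In HEA it was -0.15 and -0.12, beside -0.06 and -0.05 over all genes. The members thus did not move as one group: in WT the differences at 8 h ran from -0.87 to 2.03. All comparisons with EV at one time share the same 3 EV libraries. Without the 3 libraries farthest from their group means (WT replicate 3 at both times and EV replicate 2 at 4 h), the counts stayed at 4 and 6 members in WT and 5 and 4 in HEA, and in RA went to 0 and 1.

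**Figure D2:**
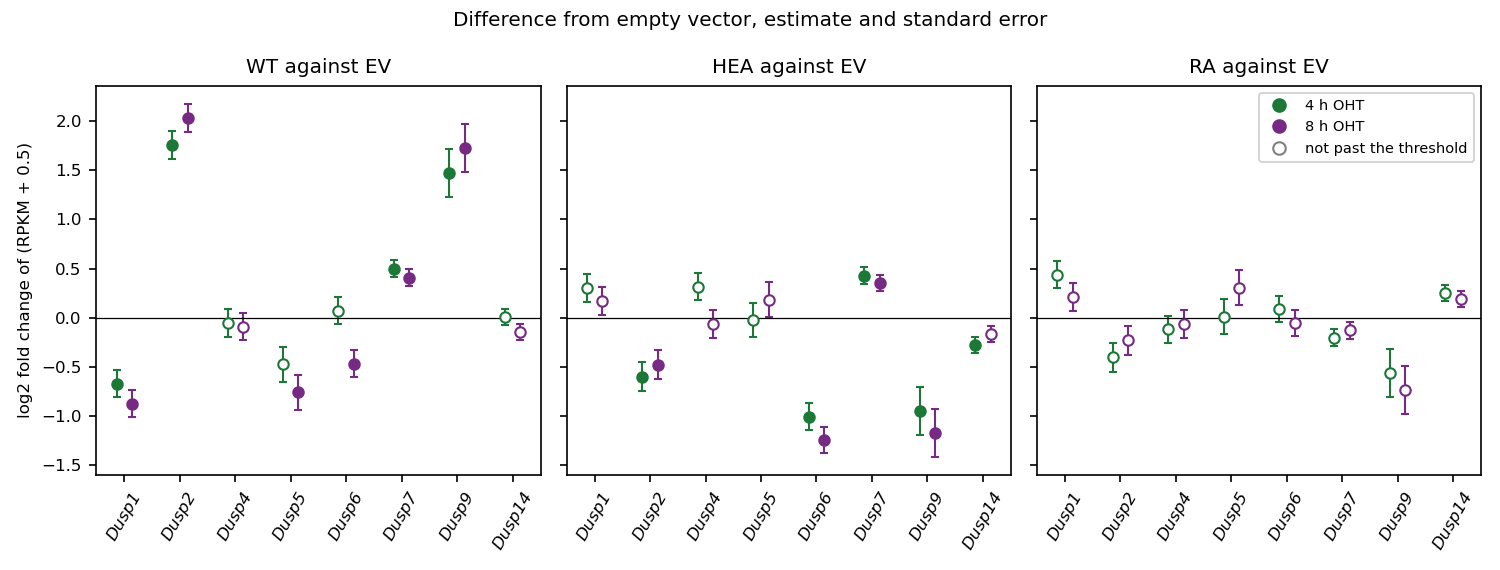
Log2 fold change of (RPKM + 0.5) against EV at the same time (vertical axis) for the 8 Dusp genes in WT, HEA and RA; points are limma estimates, bars standard errors, and filled points passed an adjusted p of 0.05. Dusp2 and Dusp9 are up in WT and down in HEA, Dusp7 is up in both, and no RA point is filled.

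Of the nuclear members, Dusp2, which acts on ERK and p38 and was first known from activated T cells, was higher in WT. Its RPKM was 5.99, 5.92 and 4.25 in EV at 4 h and 20.9, 18.2 and 18.5 in WT. At 8 h it was 4.30, 5.11 and 5.32 in EV and 24.1, 20.05 and 20.6 in WT. Every WT library lay above every EV library, with a wide gap. The log2 fold change was 1.76 ± 0.15 (SE) at 4 h (adjusted p = 5.95e-08) and 2.03 ± 0.15 at 8 h (adjusted p = 3.99e-09), that is 3.38-fold and 4.09-fold on this scale. In HEA, Dusp2 went the other way: it read 3.19, 2.84 and 4.10 RPKM at 4 h and 2.88, 3.74 and 3.56 at 8 h. All HEA libraries lay below all EV libraries of their time, by a log2 fold change of -0.60 ± 0.15 at 4 h (adjusted p = 0.00239) and -0.48 ± 0.15 at 8 h (adjusted p = 0.0111). The 8 h difference no longer passed without EV replicate 3 (adjusted p = 0.05002) or without HEA replicate 1 (adjusted p = 0.0685). RA read 3.96, 4.40 and 3.41 RPKM at 4 h and 3.57, 4.61 and 4.18 at 8 h, overlapping EV at both times, with adjusted p = 0.114 and 0.438.

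Dusp1, the immediate-early phosphatase that acts on p38, JNK and ERK, was lower in WT. In EV it read 59.9, 45.8 and 50.2 RPKM at 4 h and 58.9, 58.1 and 60.8 at 8 h. In WT it read 34.5, 37.3 and 26.1 RPKM at 4 h and 26.9, 38.3 and 32.1 at 8 h. No WT library reached the lowest EV library at either time. WT differed from EV by a log2 fold change of -0.67 ± 0.14 at 4 h (adjusted p = 0.00126) and -0.87 ± 0.14 at 8 h (adjusted p = 5.61e-05). The mutants lay on the other side of EV: HEA averaged 64.0 ± 7.4 and RA 70.4 ± 6.6 RPKM at 4 h (SD, n = 3), and 67.3 ± 11 and 68.6 ± 1.8 at 8 h. All RA libraries exceeded all EV libraries of their time, while HEA overlapped EV, and none of these 4 differences passed (adjusted p = 0.0852 for HEA and 0.0691 for RA at 4 h, 0.328 and 0.453 at 8 h). Without EV replicate 1 both passed at 4 h (adjusted p = 0.0379 for HEA and 0.0433 for RA). HEA also passed at 4 h with quantile normalisation (adjusted p = 0.0435) and with voom on recovered reads (adjusted p = 0.0491), and RA at 8 h when only the groups compared were fitted (adjusted p = 0.0216).

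Dusp5, a nuclear phosphatase specific for ERK, read 46.0, 49.0 and 33.3 RPKM in EV at 4 h and 32.1, 33.7 and 33.7 at 8 h. WT read 35.8, 31.3 and 24.7 RPKM at 4 h and 13.7, 21.3 and 25.1 at 8 h. The groups overlapped at 4 h, and all WT libraries were below EV at 8 h. On the log2 scale the difference was -0.47 ± 0.18 at 4 h (adjusted p = 0.0540) and -0.76 ± 0.18 at 8 h (adjusted p = 0.00231). The 4 h difference passed without EV replicate 3 (adjusted p = 0.0180) or without WT replicate 1 (adjusted p = 0.0278). In HEA and RA, Dusp5 averaged 41.9 ± 7.5 and 42.5 ± 1.1 RPKM at 4 h and 37.8 ± 3.6 and 41.2 ± 4.0 at 8 h. Neither form passed against EV at either time, although all libraries of both were above EV at 8 h, and RA passed at 8 h when only the groups compared were fitted (adjusted p = 0.0358). Dusp4, a nuclear phosphatase of ERK and JNK, was low, between 2.45 and 4.78 RPKM in the 24 libraries. Its group means ran from 2.93 ± 0.42 in RA at 4 h to 4.16 ± 0.69 in HEA at 4 h, and no difference from EV passed. HEA at 4 h came nearest, with a log2 fold change of 0.32 ± 0.14 (adjusted p = 0.0729), and passed without HEA replicate 3 (adjusted p = 0.0221).

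Among the cytoplasmic members, Dusp6, the ERK phosphatase often read as a marker of ERK output, was lower in HEA. In EV it read 33.7, 27.4 and 28.5 RPKM at 4 h and 37.1, 34.6 and 36.6 at 8 h. In HEA it read 17.0, 12.8 and 14.1 RPKM at 4 h and 11.5, 18.6 and 15.6 at 8 h. The highest HEA library was far below the lowest EV library. HEA differed from EV by a log2 fold change of -1.01 ± 0.13 at 4 h (adjusted p = 5.38e-06) and -1.24 ± 0.13 at 8 h (adjusted p = 2.92e-07), 2.01-fold and 2.37-fold lower. WT read 30.2, 32.0 and 31.8 RPKM at 4 h, within the range of EV (adjusted p = 0.730). At 8 h it read 23.0, 27.7 and 27.5, all below EV, with a log2 fold change of -0.47 ± 0.13 (adjusted p = 0.0102). That call was lost without WT replicate 1 at 8 h (adjusted p = 0.0582). The change of the WT difference from 4 h to 8 h was itself -0.54 ± 0.19 and did not pass (adjusted p = 0.353). RA stayed near EV, at 31.8 ± 4.3 RPKM at 4 h and 34.7 ± 1.7 at 8 h (adjusted p = 0.757 and 0.875).

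Dusp7, another cytoplasmic ERK phosphatase, was higher in both WT and HEA. EV read 32.9, 30.8 and 28.1 RPKM at 4 h and 33.0, 26.9 and 32.8 at 8 h. WT read 45.5, 39.2 and 45.8 at 4 h and 42.3, 38.05 and 42.7 at 8 h. HEA read 43.2, 41.0 and 39.8 at 4 h and 37.5, 40.8 and 40.1 at 8 h. All WT and HEA libraries were above all EV libraries of their time, and WT and HEA overlapped each other. Against EV, WT differed by 0.50 ± 0.09 on the log2 scale at 4 h (adjusted p = 0.000261) and 0.41 ± 0.09 at 8 h (adjusted p = 0.000911). HEA differed by 0.43 ± 0.09 (adjusted p = 0.000434) and 0.35 ± 0.09 (adjusted p = 0.00206). RA was at 26.5 ± 2.0 RPKM at 4 h, all libraries below EV, and 28.1 ± 1.3 at 8 h, overlapping EV. Neither RA difference passed (adjusted p = 0.179 and 0.466). Dusp7 was the member past the threshold in the same direction in WT and HEA at both times.

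Dusp9, a cytoplasmic phosphatase of ERK and p38, was the scarcest member. The filter asked for at least 1 RPKM in at least 3 libraries. Dusp9 reached 1 RPKM in all WT libraries, in EV replicate 1 at 8 h, and in no HEA or RA library. EV read 0.999, 0.688 and 0.718 RPKM at 4 h and 1.24, 0.743 and 0.897 at 8 h. WT read 2.21, 2.38 and 5.43 RPKM at 4 h and 5.31, 3.68 and 4.00 at 8 h. WT lay above EV at both times, with 1 library at 4 h (replicate 3) well above the other 2 WT libraries of that time. The log2 fold change was 1.47 ± 0.24 at 4 h (adjusted p = 0.000187) and 1.73 ± 0.24 at 8 h (adjusted p = 1.65e-05), and the plain ratio of mean RPKM was 4.17 and 4.51. HEA read 0.336, 0.139 and 0.0674 RPKM at 4 h and 0.110, 0.170 and 0.145 at 8 h, below every EV library. These were 10, 4 and 2 reads at 4 h and 3, 5 and 4 at 8 h, against 32, 19 and 22 and 38, 25 and 27 reads in EV. The log2 fold change in HEA was -0.95 ± 0.24 (adjusted p = 0.00382) and -1.17 ± 0.24 (adjusted p = 0.000554). At such low values its size depends on the scale: with a pseudocount of 0.1 it was -1.78 and -2.11, with a pseudocount of 1 it was -0.61 and -0.77, and with voom it was -2.26 and -2.56, past the threshold each time. RA read 0.174, 0.505 and 0.494 RPKM at 4 h and 0.373, 0.333 and 0.407 at 8 h, also below every EV library, without passing (adjusted p = 0.192 and 0.109). At 8 h RA passed when only the groups compared were fitted (adjusted p = 0.0353) and without the 3 far libraries (adjusted p = 0.0338).

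Dusp14, the atypical member, had the smallest difference from EV among those that passed. EV read 55.4, 46.1 and 48.01 RPKM at 4 h and HEA 41.7, 38.8 and 42.0, with no overlap. The difference was -0.28 ± 0.08 on the log2 scale (adjusted p = 0.00839), and it was lost without EV replicate 1 (adjusted p = 0.0656). At 8 h HEA averaged 43.9 ± 2.5 RPKM and EV 49.4 ± 3.2, and the groups overlapped (adjusted p = 0.0998). WT averaged 50.2 ± 3.7 and 44.5 ± 2.5 RPKM at the 2 times without passing, though it passed at 8 h with quantile normalisation (adjusted p = 0.0482). RA had the highest means, 59.6 ± 5.6 and 56.5 ± 3.4 RPKM (adjusted p = 0.0714 and 0.212 against EV). RA passed with quantile normalisation at both times (adjusted p = 0.00933 and 0.0320), and at 4 h without EV replicate 1 (adjusted p = 0.0321) or RA replicate 1 (adjusted p = 0.0473).

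The 3 forms of MycER were then compared with each other, without EV. WT against HEA gave 4 members higher and 3 lower at 4 h (26.9% of all genes higher and 22.6% lower) and 3 higher and 2 lower at 8 h (24.6% and 23.4%). Dusp2 was 5.12-fold higher in WT at 4 h (adjusted p = 1.21e-10) and 5.68-fold higher at 8 h (adjusted p = 3.21e-11). Dusp9 was higher by 2.42 ± 0.24 and 2.90 ± 0.24 on the log2 scale, and by 4.19 and 4.77 with voom, so here too its size depends on the scale. Dusp6 was 2.11-fold and 1.72-fold higher in WT. Dusp1 was 1.96-fold and 2.06-fold lower in WT, and Dusp5 1.37-fold and 1.92-fold lower. Dusp7 did not pass between WT and HEA, with differences of 0.07 ± 0.09 and 0.05 ± 0.09. The 4 h calls of Dusp4 (-0.37 ± 0.14, adjusted p = 0.0324) and Dusp5 (-0.45 ± 0.18, adjusted p = 0.0409) were each lost without WT replicate 2 or 3 or HEA replicate 1 or 2, with no filter, with only the groups compared and without the 3 far libraries. Their adjusted p then ran from 0.0517 to 0.210, and quantile normalisation took Dusp4 (0.195) and median centring Dusp5 (0.0537) out of the calls too. Dusp14 was higher in WT at 4 h by 0.29 ± 0.08 (adjusted p = 0.00552), or by 0.18 with quantile normalisation.

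WT against RA gave 3 members higher and 3 lower at 4 h (15.0% of all genes higher and 19.9% lower), and 3 higher and 4 lower at 8 h (17.3% and 24.4%). Dusp2 was 4.47-fold and 4.79-fold higher in WT. Dusp9 was higher by 2.03 ± 0.24 and 2.46 ± 0.24 on the log2 scale, and by 3.15 and 3.52 with voom. Dusp7 was 1.63-fold and 1.45-fold higher. Dusp1 was 2.16-fold and 2.12-fold lower in WT, and Dusp5 1.398-fold and 2.08-fold lower. The 4 h calls of Dusp5 (adjusted p = 0.0393) and Dusp14 (adjusted p = 0.0246) were not stable. Dusp5 lost its call without WT replicate 2 or 3 or any 1 RA library (adjusted p from 0.0637 to 0.188), and Dusp14 without WT replicate 1 or 2 or RA replicate 2 or 3 (0.0602 to 0.104). Both calls were also lost with median centring (0.0859 and 0.0810) and with voom (0.0557 and 0.102), that of Dusp5 with no filter (0.0630) and without the 3 far libraries (0.113), and that of Dusp14 with only the groups compared (0.0966). At 8 h the call of Dusp6 (-0.41 ± 0.13, adjusted p = 0.0178) was lost without WT replicate 1 (0.0940) or RA replicate 1 (0.0605).

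The mutants also differed from each other. HEA against RA gave 2 members higher and 2 lower at 4 h (18.0% of all genes higher and 28.3% lower) and 1 higher and 2 lower at 8 h (17.9% and 27.0%). Dusp6 was 2.13-fold lower in HEA than in RA at 4 h (adjusted p = 2.09e-06) and 2.28-fold lower at 8 h (adjusted p = 6.16e-07), with no overlap of libraries. Dusp7 was 1.55-fold and 1.39-fold higher in HEA, and Dusp14 1.45-fold and 1.28-fold lower. Dusp4 was higher in HEA at 4 h (0.44 ± 0.14, adjusted p = 0.0147), a call lost without HEA replicate 1 (0.0834) or RA replicate 1 (0.0804) and with only the groups compared (0.0787). Dusp1, Dusp2, Dusp5 and Dusp9 did not pass between HEA and RA at either time, although Dusp9 passed at 8 h with a pseudocount of 0.1 (adjusted p = 0.0399).

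Within a vector, the members hardly differed between 4 h and 8 h. By limma 0 members passed in EV, HEA or RA (0.0245%, 3.33% and 0.220% of all genes), with 0 members at an unadjusted p under 0.05 and 0 by voom. Of all 12268 genes, 1437, 2227 and 1211 had an unadjusted p under 0.05 in EV, HEA and RA. In WT 1 member passed, Dusp5, lower at 8 h by -0.63 ± 0.18 on the log2 scale (adjusted p = 0.0333), where 8.46% of all genes passed. Dusp5 lost that call without WT replicate 1 of either time (adjusted p = 0.101 without that of 4 h and 0.177 without that of 8 h) or replicate 2 of 4 h (0.0760), with no filter (0.0553) and with only the groups compared (0.261). Its size was -0.38 without WT replicate 1 of 8 h and -0.95 without the 3 far libraries (adjusted p = 0.00462). Dusp9 passed without WT replicate 3 of 4 h (adjusted p = 0.0457), the library with 5.43 RPKM, and without the 3 far libraries (0.0454). The change of the difference from EV between 4 h and 8 h passed for 0 members in WT, HEA and RA (0.0163%, 0.0163% and 0% of all genes), also by voom. Dusp6 in WT was the single member with an unadjusted p under 0.05 in these 3 tests. Among all 12268 genes, 1395, 408 and 256 had one in WT, HEA and RA.

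When the groups were placed in order of their means, neighbouring groups of a member mostly overlapped, with few gaps. Such gaps were not counted over all tested genes, so they do not set the members apart. For Dusp2 the WT groups overlapped each other and stood apart from EV at 4 h, the next lower group, and each of the 6 lower groups overlapped its neighbour. For Dusp9 the order was WT, EV, RA and HEA, with gaps between WT and EV and between EV and RA, and overlap between RA and HEA. For Dusp6 the gap lay between WT at 8 h and the HEA groups. Dusp7 had its gap between the 4 WT and HEA groups and the 4 EV and RA groups. For Dusp1 only the WT groups stood apart, below EV at 4 h. For Dusp5 there was a gap between HEA and EV at 8 h, while WT at 4 h overlapped EV at 8 h. Dusp4 and Dusp14 overlapped between all neighbours.

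The mean RPKM of Dusp9 and Dusp2 in WT at 8 h was 4.51 and 4.40 times that in EV. In EV at 8 h, however, they made up only 0.438% and 2.25% of the summed level of the 8. That sum lay between 193 and 238 RPKM in all group means. The sum was 214 ± 21 RPKM (SD, n = 3) for EV at 4 h, 214 ± 6.8 for WT, 211 ± 14 for HEA and 238 ± 19 for RA. At 8 h it was 218 ± 8.3 for EV, 193 ± 7.3 for WT, 211 ± 23 for HEA and 237 ± 9.7 for RA. All WT library sums at 8 h lay below all EV sums, and all RA sums above them. The makeup of the sum differed more. Dusp1 made up 27.1% ± 0.59 of it in EV at 8 h and 16.7% ± 2.5 in WT, while Dusp2 made up 2.25% ± 0.27 and 11.2% ± 1.6. Dusp6 made up 16.5% ± 0.27 in EV at 8 h and 7.15% ± 0.99 in HEA. These sums are of transcript levels and carry no test, since the members were added up by choice.

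**Figure D3:**
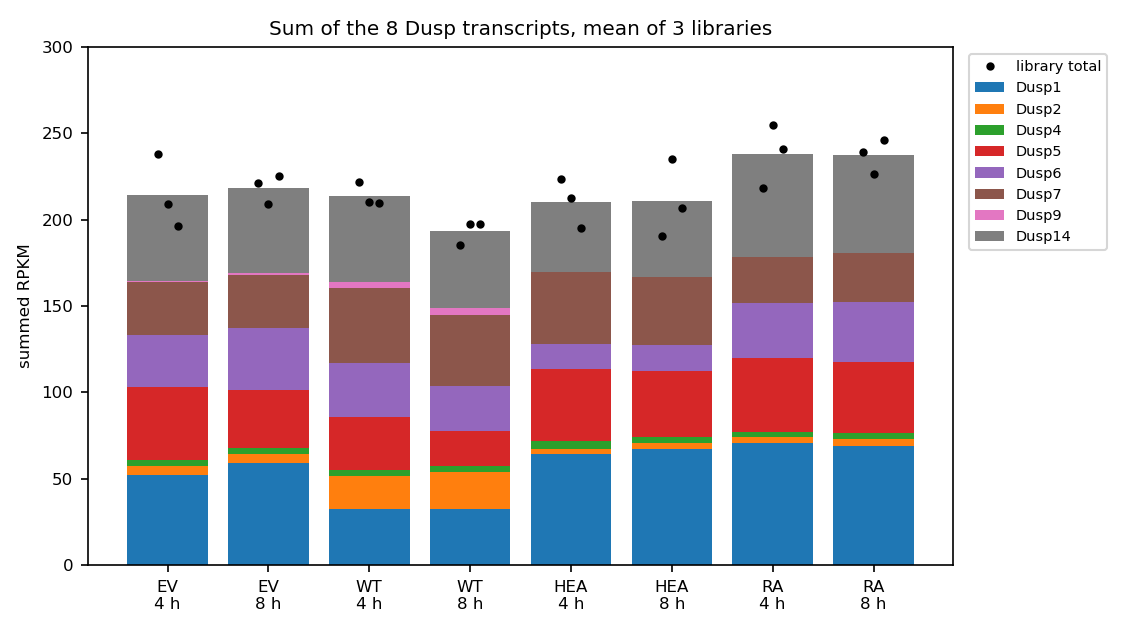
Summed RPKM of the 8 Dusp genes (vertical axis, from 0) in each group; stacked bars are the mean of 3 libraries per gene and points the total of each library. Group sums lie between 193 and 238 RPKM while the Dusp2 segment is widest in WT and the Dusp6 segment narrowest in HEA.

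For the differences from EV, the authors' deposited table gave the same member calls in WT at both times. For Dusp2 in WT the authors' deposited table lists log2 fold changes of 1.63 at 4 h and 2.01 at 8 h. In the mutants it differed from the fit used here for a few members. For Dusp9 in RA the authors' deposited table lists no adjusted p at either time, so that call cannot be compared. The authors' deposited table calls Dusp1 higher in HEA (adjusted p = 0.0450 at 4 h and 0.0457 at 8 h) and in RA (adjusted p = 0.0241 and 0.0267). The authors' deposited table also calls Dusp5 higher in RA at 8 h (adjusted p = 0.0316). It leaves Dusp2 in HEA above the threshold (adjusted p = 0.0565 and 0.0793 in the authors' deposited table), and Dusp14 in HEA at 4 h (adjusted p = 0.0859 in the authors' deposited table).

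For the members that ranked highest in the F-test, the genes with the most similar profile over the 24 libraries were found by Pearson correlation on log2(RPKM + 0.5). The libraries fall into the 8 groups, so these values describe shared group differences and have no p-value. Dusp2 was most like Glul (r = 0.985), Gne (0.978) and Rrp1b (0.974). Glul, glutamine synthetase, read 13.6 RPKM in EV at 8 h, 41.2 in WT, 9.03 in HEA and 12.3 in RA (means), high in WT and lowest in HEA as Dusp2 was. Dusp9 was most like Polr1e (r = 0.970), a subunit of RNA polymerase I, Pus7 (0.969), a pseudouridine synthase, and Pomgnt2 (0.968). Dusp6 was most like Eno3 (r = 0.959), the muscle form of enolase, Btbd19 (0.946) and Osbpl5 (0.940). Osbpl5 read 19.4 RPKM in EV at 8 h and 6.55 in HEA, and 14.9 in WT and 20.1 in RA.

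The rest of the MAP kinase pathway was read from lists of its ligands, receptors, kinases, inhibitors and output genes, at 8 h unless a time is given. The counts stand against 15.2% of all tested genes higher and 20.1% lower in WT at 8 h, and 20.2% and 27.5% in HEA. For counts at 4 h the shares were 11.6% and 14.4% in WT, and 17.7% and 25.5% in HEA. Of 9 tested growth factor ligands, 0 were higher and 6 lower in WT at 8 h, and 2 higher and 6 lower in HEA, so that 66.7% of the list was lower in each. At 4 h 2 ligands were lower in WT, and 2 were higher and 4 lower in HEA. The median log2 fold change was -0.36 in WT and -0.45 in HEA, beside -0.02 and -0.05 over all tested genes. Tgfa fell from 7.61 ± 0.42 RPKM in EV to 3.46 ± 0.21 in WT and 4.28 ± 0.32 in HEA, and Ereg, another ligand of the EGF receptor family, from 31.3 ± 1.5 to 20.1 ± 2.5 and 12.8 ± 0.76. Fgf2, a fibroblast growth factor, read 4.86 ± 0.55 RPKM in EV, 1.79 ± 0.80 in WT and 0.463 ± 0.21 in HEA. Each of these 3 ligands passed in both forms at 8 h (adjusted p = 0.000295 or lower). Fgf2 was also lower at 4 h, from 5.66 ± 0.95 RPKM in EV to 3.39 ± 0.67 in WT (adjusted p = 0.0439), 1.47 ± 0.41 in HEA (adjusted p = 1.35e-05) and 1.81 ± 0.47 in RA (adjusted p = 0.00252). In RA at 8 h it read 3.16 ± 0.74 RPKM and did not pass (adjusted p = 0.214). Of 10 receptors, 0 were higher and 4 lower in WT, among them the PDGF receptors Pdgfra (-0.69 ± 0.13, adjusted p = 0.000328) and Pdgfrb (-0.36 ± 0.13, adjusted p = 0.0387) and the hepatocyte growth factor receptor Met (-0.43 ± 0.06, adjusted p = 2.67e-05). In HEA 1 receptor was higher and 1 lower. At 4 h 4 receptors were again lower in WT and none was higher, while in HEA 2 were higher and none lower.

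Of 15 genes of the ERK cascade, 0 were higher and 4 lower in WT at 8 h, and 1 higher and 3 lower in HEA. The lower shares, 26.7% and 20%, were near those of all genes. Mapk3, which encodes ERK1, fell from 26.0 ± 3.1 RPKM in EV to 12.7 ± 2.0 in WT (adjusted p = 0.00016) and 14.9 ± 3.8 in HEA (adjusted p = 0.000874). Shc1, an adaptor between receptors and Ras, fell in WT by 0.42 ± 0.07 on the log2 scale (adjusted p = 6.18e-05) and differed from EV by 0.03 ± 0.07 in HEA. Nras fell by 0.31 ± 0.09 on the log2 scale in WT (adjusted p = 0.00966) and by 0.99 ± 0.09 in HEA (adjusted p = 3.13e-08), a pattern with its lowest values in HEA, as for Dusp6. Of 13 genes of the p38, JNK and ERK5 cascades, 1 was higher and 1 lower in WT, and 6 higher (46.2%) and 3 lower (23.1%) in HEA. Mapk11, a p38 kinase, fell by 0.89 ± 0.09 in WT (adjusted p = 2.69e-07), and Map3k1, upstream of JNK, rose by 0.39 ± 0.11 in WT (adjusted p = 0.00992) and 0.70 ± 0.11 in HEA (adjusted p = 3.95e-05). Of 9 kinases activated by MAP kinases, 2 were higher (22.2%) and 1 lower (11.1%) in WT, and 3 higher (33.3%) and 2 lower (22.2%) in HEA. Rps6ka1, a kinase activated by ERK, read 4.53 ± 0.26 RPKM in EV, 8.15 ± 0.99 in WT (adjusted p = 0.000103) and 6.78 ± 0.12 in HEA (adjusted p = 0.00214), and so rose with Dusp7 in both. Mknk1, which phosphorylates the translation factor eIF4E, had the directions of Dusp2 and Dusp9, higher in WT (0.42 ± 0.12, adjusted p = 0.00693) and lower in HEA (-0.58 ± 0.12, adjusted p = 0.000355). Rps6ka5, a kinase of histones and CREB, fell by 0.65 ± 0.15 in WT (adjusted p = 0.00206). Among 7 other feedback inhibitors (Sprouty and Spred genes and Errfi1), 1 was higher (14.3%) and 2 lower (28.6%) in both WT and HEA, shares near those of all genes. Spry1, an inhibitor of receptor signalling to Ras, was the higher one, at 9.05 ± 0.23 RPKM in EV, 18.3 ± 2.5 in WT and 17.7 ± 0.28 in HEA at 8 h, which like Dusp7 was up in both. Errfi1, an inhibitor of the EGF receptor, fell by 0.83 ± 0.09 in WT (adjusted p = 8.10e-07) and by 0.30 ± 0.09 in HEA (adjusted p = 0.0122). Spred3 fell in WT from 3.76 ± 0.44 to 1.92 ± 0.42 RPKM (adjusted p = 0.00109).

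Of 25 output and immediate-early genes, 0 were higher and 12 lower in WT at 8 h, and 3 higher and 15 lower in HEA. The lower genes made up 48% of the list in WT and 60% in HEA, beside 20.1% and 27.5% of all genes. At 4 h 7 were lower in WT (14.4% of all genes), and 2 higher and 11 lower in HEA (17.7% and 25.5%). The median log2 fold change at 8 h was -0.32 in WT and -0.48 in HEA, beside -0.02 and -0.05 over all tested genes. In WT at 8 h the ligand, receptor, ERK cascade and output lists also had 0 genes higher at an unadjusted p under 0.05 by limma. The p38, JNK and ERK5 list had 1 such gene, the kinases activated by MAP kinases 2 and the feedback inhibitors 1. Of all 12268 genes, 5465 had such a p, counting both directions. Etv5, a transcription factor induced by ERK, read 16.8 ± 0.22 RPKM in EV, 8.79 ± 0.50 in WT and 6.57 ± 0.97 in HEA, and so fell in WT at 8 h as Dusp6 did. Btg2, an antiproliferative immediate-early gene, split the forms as Dusp1 did at 8 h: it fell by 1.38 ± 0.19 on the log2 scale in WT (adjusted p = 1.30e-05) and rose by 0.48 ± 0.19 in HEA (adjusted p = 0.0429), though Dusp1 itself did not pass in HEA. Over all of these lists, 1 receptor was higher and 1 output gene lower in RA at 8 h, where 2.78% of all genes passed. At 4 h 1 receptor was higher and 4 genes of other lists lower in RA, Fgf2 among them, where 5.31% passed.

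**Figure D4:**
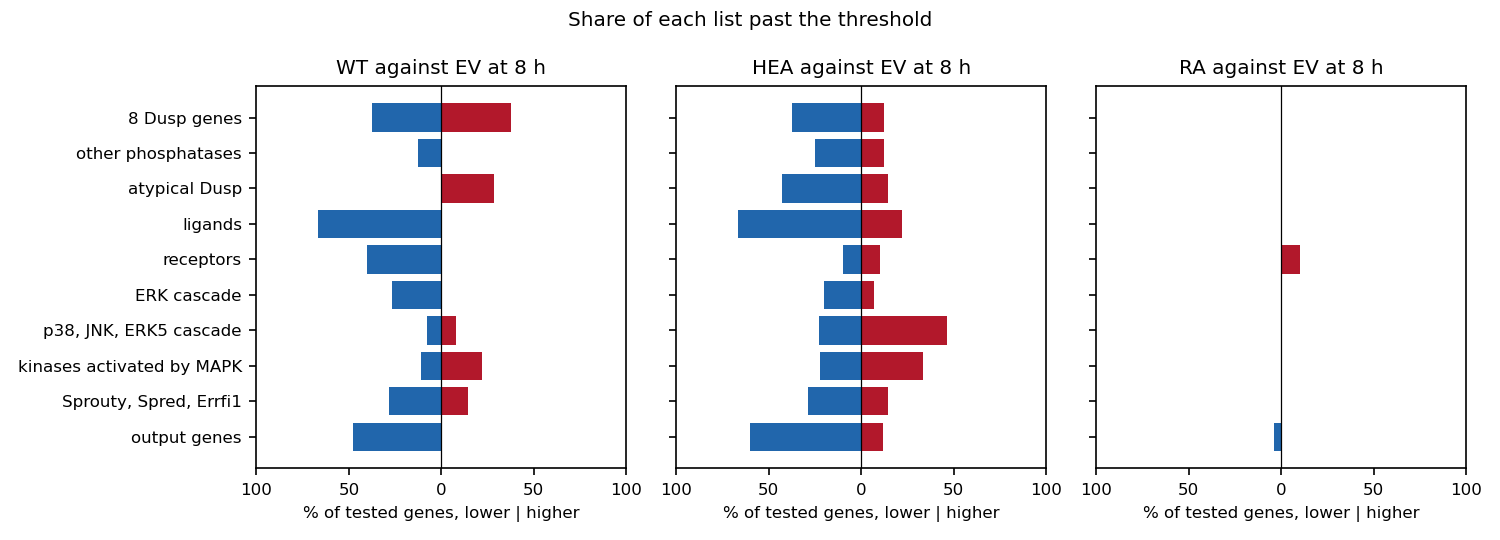
Share of each list's tested genes past an adjusted p of 0.05 at 8 h in WT, HEA and RA against EV (horizontal axis in percent, lower to the left in blue, higher to the right in red). The 8 Dusp genes have calls on both sides in WT, 3 higher and 3 lower, while 12 of the 25 output genes are lower and 0 higher.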

How the data were processed

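RNA of 24 libraries was sequenced after preparation with a stranded total RNA kit, per the labels' protocols. The authors deposited RPKM values per gene and library, per the file headers, and, in a second file, their differences from EV with a log2 fold change, a test score (the Wald statistic column), a p-value and an adjusted p-value, per the file headers. Listed in the submitters' processing notes are DESeq2, featureCounts 1.4.5-p1, SAMtools, TopHat and TopHat2 2.0.8, and the mouse build mm9. Their roles, the annotation and the strand setting were not given in the sources used here, so reads of overlapping or antisense genes cannot be told apart.

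Because the files hold RPKM, log2(RPKM + 0.5) was tested with limma-trend (limma 3.58.1, R 4.3.3) in 1 fit of 8 group means with 16 residual degrees of freedom. The count test that had been planned was not used. Genes with at least 1 RPKM in at least 3 libraries were tested, and the Benjamini-Hochberg adjustment was made separately for 19 comparisons, with 0.05 as the threshold. The pseudocount shrinks fold changes of low genes. Whole reads were recovered from the RPKM steps for all 21671 genes (100% of 362673 values above 0, within 1.64e-10 read of a whole number). A gene with 0 reads could hold up to 3, 0.234 to 0.305 CPM, counting error only. The fitting code was tested on simulated data.

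Alternatives were pseudocounts of 0.1 and 1, no filter, quantile normalisation, median centring, only the groups compared, a replicate block, voom on recovered reads with TMM factors, and leaving out each library. Leaving out 3 far libraries was chosen after seeing the data. The members, lists and rule for named genes were chosen with earlier results of these data known. The rule takes all members, Esr1 and Myc, up to 3 genes per list with the smallest p in WT at 8 h among those that passed, and the 3 genes most like each of the 3 members ranked first by the F-test, predicted genes passed over. Promoters came from RefSeq on GRCm38.p6 and were matched by symbol.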

Additional observations from a re-analysis of the deposited data

How the results depend on the processing

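Over the alternatives, 2424 member differences were recomputed. None reversed past the threshold, 46 lost and 19 gained a call, and 93 changed sign with neither value past it. Member counts moved by over 1.5 times in 3 comparisons. RA against EV at 4 h went from 0 to 1 with quantile normalisation and ran from 0 to 2 leaving out a replicate. RA against EV at 8 h went from 0 to 1 with quantile normalisation, 3 with only the groups compared and 1 without the 3 far libraries. In WT, 8 h against 4 h went from 1 to 0 without a filter and with only the groups compared, to 2 without the 3 far libraries, and ran from 0 to 2 leaving out a replicate. Fitting only the groups compared leaves fewer libraries to estimate the spread. With it the member count rose in RA at 8 h and fell in WT for 8 h against 4 h. The cause of these moves was not tested.

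The background counts of all genes moved more. With only the groups compared they went from 3196 to 1112 in WT at 4 h, 652 to 3 and 341 to 1310 in RA at 4 h and 8 h, 6073 to 3945 for WT against HEA and 4272 to 2793 for WT against RA at 4 h, and, for 8 h against 4 h, 1038 to 0 in WT, 409 to 2 in HEA, 27 to 0 in RA and 3 to 0 in EV. Without the 3 far libraries RA gave 335 and 805, and 8 h against 4 h gave 938 in HEA, 87 in RA and 0 in EV. Voom gave 533 in RA at 8 h, and quantile normalisation 647 for HEA at 8 h against 4 h. Leaving out a replicate gave 2040 to 3479 in WT at 4 h, 158 to 557 and 59 to 189 in RA at 4 h and 8 h, and, for 8 h against 4 h, 290 to 1118 in WT, 105 to 618 in HEA and 0 to 12 in RA. Median centring moved the share of calls that were higher from 44.7 to 57.3% and 43.0 to 55.2% in WT at 4 h and 8 h, from 42.3 to 53.6% in HEA at 8 h, from 43.0 to 55.6% for WT against RA at 4 h, and from 52.7 to 38.1% for 8 h against 4 h in WT. Quantile normalisation moved it from 70.4 to 55.3% for 8 h against 4 h in RA.

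With replicate number as a block, all member counts were the same, for example 4 and 6 in WT at 4 h and 8 h, and all-gene counts were 3066 and 4233. Same-numbered libraries of different groups did not line up consistently: 30 of 84 pairs correlated above 0.1 (median 0.023, from -0.598 to 0.407). Pairs with different numbers had a median of -0.010, from -0.529 to 0.663, so single pairs of either kind did correlate. Depth limits Dusp9 most, with 2 to 160 reads per library.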

Other observations

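Most other phosphatases outside the 8 did not pass against EV in WT. Of 8 other tested phosphatases of MAP kinases, 1 was higher in WT at 4 h and 1 lower at 8 h, and in HEA 2 were lower at 4 h, and 1 higher and 2 lower at 8 h. Of 7 tested atypical members, 3 were higher in WT at 4 h and 2 at 8 h, and in HEA 1 was higher and 2 lower at 4 h, and 1 higher and 3 lower at 8 h. The shares of all tested genes were 15.2% higher and 20.1% lower in WT at 8 h, and 20.2% and 27.5% in HEA. At 4 h they were 11.6% and 14.4% in WT, and 17.7% and 25.5% in HEA. Dusp3, an atypical phosphatase of ERK and JNK, had means at 4 h of 26.1 ± 0.72 RPKM (EV), 40.8 ± 3.2 (WT), 36.4 ± 5.1 (HEA) and 21.9 ± 1.8 (RA), and 27.4 ± 1.0, 40.8 ± 4.0, 40.7 ± 4.1 and 21.9 ± 1.2 at 8 h (SD, n = 3). Like Dusp7 it was higher in WT and HEA at both times. Dusp12 was higher in WT and lower in HEA at both times, as Dusp2 and Dusp9 were, with log2 fold changes at 8 h of 0.37 ± 0.13 in WT (adjusted p = 0.0322) and -0.65 ± 0.13 in HEA (adjusted p = 0.000391). Dusp10, which acts on p38 and JNK, fell in WT at 8 h from 18.4 ± 0.27 to 11.0 ± 2.2 RPKM (adjusted p = 9.86e-05) and rose in RA at 4 h from 16.02 ± 1.6 to 22.7 ± 1.9 (adjusted p = 0.0265). The p-values are limma's.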
